A study of Homo sapiens with 2 samples.

Results

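SNARE proteins are the membrane fusion machinery of the secretory and endocytic pathways. The messages of 37 of them were followed in HEK293T cells treated with control siRNA or SRα siRNA. Members were taken by symbol, through the Ensembl gene ID of each row, and 36 of the 37 matched 1 of the 57820 gene rows in both files. SEC22B did not match under its current Ensembl ID, the only one looked for, and is not analysed here. HEK293T is an established human embryonic kidney line. Messenger RNA was sequenced in 2 libraries, 1 after treatment with control siRNA and 1 after treatment with SRα siRNA. SRα, the product of SRPRA, is the receptor subunit that docks the signal recognition particle (SRP). The libraries held 2445200 and 3896721 reads assigned to genes. SRPRA itself had 507 and 449 reads, or 0.570 times its control level after scaling. More of its message thus remained than was lost, and the counts do not measure SRα protein. With 1 library per group no difference has a replicate check or a test, and the intervals below cover counting error only. Fewer cells with a message and less of it per cell cannot be told apart in bulk RNA.

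SRP binds the signal sequence or first transmembrane segment of a growing protein and brings the ribosome to the endoplasmic reticulum (ER) through its receptor. Most SNAREs do not use this route: their only membrane segment lies at the C-terminus, leaves the ribosome when synthesis ends, and is inserted after translation by the GET pathway or the ER membrane protein complex. Other SNAREs have no membrane segment and are held at membranes by attached lipids or by their partners. A fusion complex is a bundle of helices made of Qa, Qb, Qc and R SNARE motifs, where a Qbc protein supplies both the Qb and the Qc helix. The members therefore fall into 28 with a C-terminal anchor, 6 without a transmembrane segment (SNAP23, SNAP25, SNAP29, SNAP47, YKT6 and STX11), and SEC22A and SEC22C, relatives of SEC22B, which were kept apart. The comparison asks whether messages of anchored SNAREs differ between the libraries from those of SNAREs with no membrane segment. It holds no class of proteins inserted through SRP, so it does not set SRP clients against others.

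Stretches of the coding sequences show how the classes differ, and 5 anchored members are set beside 2 members held by lipids. Each is a 3′ end except that of SNAP23, which covers bases 208 to 282 of 636. For the first 5 names the run goes from 2 codons before the most hydrophobic window of 19 residues to the stop codon, with the 19 codons of that window in capitals. For YKT6 the last 25 codons, stop included, are shown, and for SNAP23 25 codons around its cysteine cluster, with cysteine codons in capitals. All are from the principal transcript of the gene in GENCODE 29, written 5′ to 3′.
VAMP3: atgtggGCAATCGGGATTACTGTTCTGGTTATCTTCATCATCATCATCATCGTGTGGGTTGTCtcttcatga
STX5: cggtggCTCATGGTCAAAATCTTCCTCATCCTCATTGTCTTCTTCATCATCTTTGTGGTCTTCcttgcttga
GOSR1: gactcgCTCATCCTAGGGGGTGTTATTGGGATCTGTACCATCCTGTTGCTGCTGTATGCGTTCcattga
USE1: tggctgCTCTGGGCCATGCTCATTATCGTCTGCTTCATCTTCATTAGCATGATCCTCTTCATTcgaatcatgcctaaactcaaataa
STX17: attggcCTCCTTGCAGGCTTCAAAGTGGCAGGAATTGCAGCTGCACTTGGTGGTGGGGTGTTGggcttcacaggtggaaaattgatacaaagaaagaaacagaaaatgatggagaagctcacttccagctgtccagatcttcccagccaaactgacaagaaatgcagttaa
YKT6: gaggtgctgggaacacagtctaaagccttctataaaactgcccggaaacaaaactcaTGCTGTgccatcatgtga
SNAP23: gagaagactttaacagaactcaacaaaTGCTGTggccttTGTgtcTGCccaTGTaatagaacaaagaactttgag

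In VAMP3 and STX5 the capitals stop 2 residues before the end of the protein, and in GOSR1 1 residue before it. USE1 carries 7 residues after its window. STX17, the autophagosomal Qa SNARE whose anchor is known as a hairpin, carries 35. YKT6 has no such run, and its 2 cysteine codons stand just before the last 3 sense codons, where the protein is known to receive its lipids. The 5 cysteine codons of the SNAP23 stretch lie in the linker between its helices, which is known to be palmitoylated.

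The class labels were checked on all members by the mean Kyte-Doolittle hydropathy, a scale on which greasy residues score high, over windows of 19 residues, with 1.6 as the limit for a membrane segment. All 28 anchored members had 1 predicted segment, ending within the last 50 residues, and in 25 of them at most 8 residues followed the most hydrophobic window. Overlapping windows past the limit were joined into 1 segment, so the hairpin of STX17 counts as 1 here and the check cannot tell it from a single helix. The window means ran from 1.79 in STX17 to 3.99 in STX16, with a median of 3.23. In the principal isoform, the 6 members classed as lacking a segment had no window past the limit, and their highest means ran from 0.432 in SNAP29 to 0.995 in SNAP47. For SNAP23, 1 of 6 complete coding isoforms did hold a predicted C-terminal segment. SEC22A and SEC22C had 2 and 4 predicted segments, and in both 99 residues followed the most hydrophobic window, so neither has the single C-terminal anchor of the other class. In 13 of the 28 anchored genes at least 1 complete coding isoform of GENCODE 29 lacked the C-terminal segment, 3 of 4 isoforms in STX1A and 1 of 5 in STX3 among them, and reads counted per gene do not separate isoforms.

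**Figure D1:**
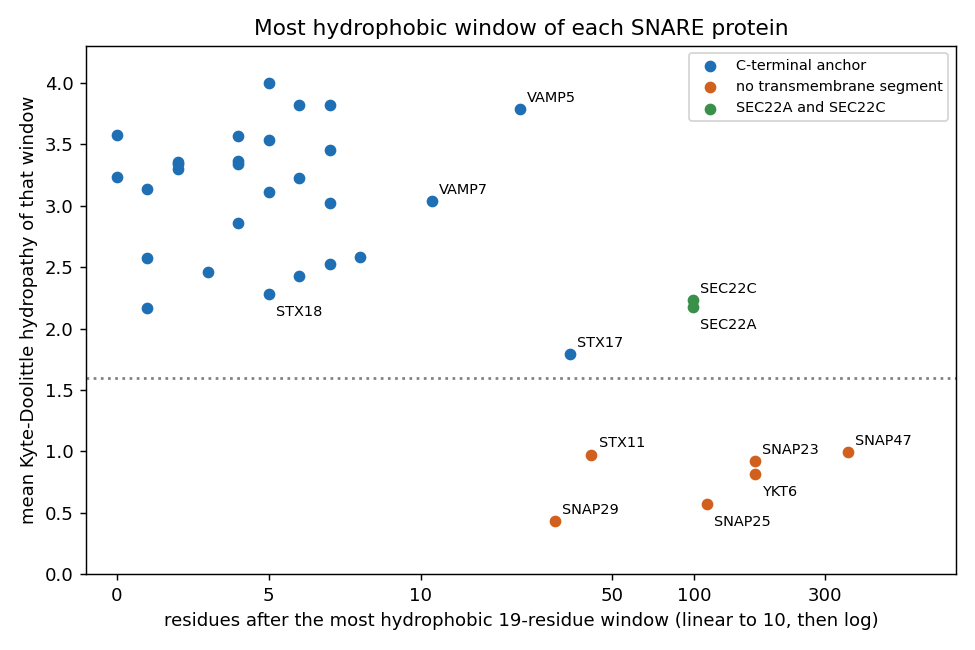
Mean Kyte-Doolittle hydropathy of the most hydrophobic 19-residue window of each of the 36 matched members (vertical axis, dotted line at the limit of 1.6) against the number of residues after it (horizontal axis, linear to 10 and then logarithmic). Anchored members sit at upper left, with VAMP5 (23 residues), STX17 (35) and VAMP7 (11) farther from the C-terminus, and the 6 members without a segment all lie under the line.

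Levels are compared between genes as reads per kilobase of exonic length per 1000000 reads (RPKM), with exact Poisson intervals. YKT6, the lipid-modified R SNARE of transport in the Golgi and beyond, had the highest level of the 36 matched members, 32.2 RPKM in both libraries. VAMP3, the R SNARE of recycling endosomes, followed at 19.6 RPKM in the control library and 21.5 in the SRα siRNA library, then STX5, the Qa SNARE of the Golgi, at 17.7 and 18.1. YKT6 and VAMP3 were the only neighbours in the order of 36 members whose 95% intervals were apart in both libraries; the other 34 of 35 neighbouring pairs overlapped in at least 1. The order rests on which length is used: divided by the length of the principal transcript alone, USE1, an ER Qc SNARE, ranked 1 and YKT6 ranked 2. USE1 then stood at 51.3 and 41.0 RPKM and YKT6 at 44.3 in both libraries.

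Within the roles the level was shared among a few members. YKT6 made up 52.0% of the summed RPKM of the R SNAREs in the control library and 51.4% in the other, and VAMP3 31.6% and 34.2%. Among Qa SNAREs STX5 (24.9% and 25.5%), STX12 (19.5% and 18.8%) and STX4 (17.1% and 17.0%) led. That order also rests on the length: by the principal transcript, a choice added after seeing the data, STX4 led with 26.5% and 26.2%, ahead of STX5 (17.6% and 17.97%), STX18 (15.8% and 17.96%) and STX12 (13.7% and 13.1%). SNAP23 held 46.7% and 46.5% of the Qbc group, and SNAP47 36.6% and 40.0%. By the principal transcript they held 45.8% and 44.6% against 45.5% and 48.6%, so neither leads under both lengths in both libraries. SEC22B is missing from the R group, so these shares leave it out. The SNAREs best known from synapses had few reads: STX1A had 5 and 11, VAMP1 6 and 9, VAMP2 2 and 0, and SNAP25 1 and 0. VAMP2 shares 13.2% of its exonic bases with another gene on the same strand. Its level is therefore uncertain, and the part of this overlap in its count was not tested. For a count of 0 in the SRα siRNA library, the limit of 3 reads comes to 0.780 CPM, reads scaled to 1000000 per library.

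**Figure D2:**
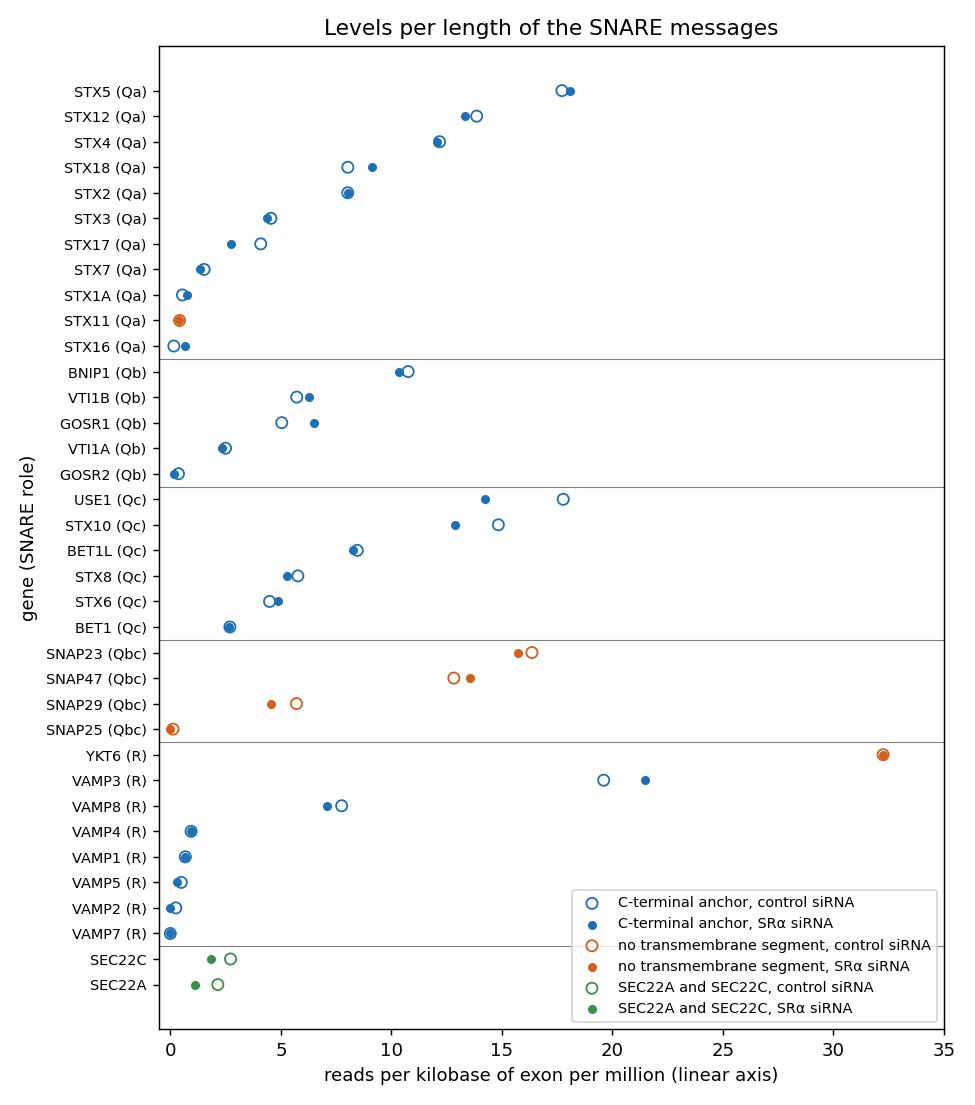
Level per length of each matched member in RPKM (horizontal, linear axis), grouped by SNARE role, with open circles for the control siRNA library and filled circles for the SRα siRNA library. Both circles of YKT6 lie at 32.2, and VAMP3 comes next in the R group (19.6 and 21.5). VAMP7 is drawn at 0 in both libraries, which says nothing of its level.

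Neither class of SNARE stood apart between the libraries. The 28 anchored genes had 1649 reads in the control library and 2562 in the SRα siRNA library, or 666 CPM in each, a ratio of 0.9999 (95% counting interval 0.940 to 1.06). The 6 genes without a transmembrane segment had 817 and 1250 reads, or 330 and 325 CPM, a ratio of 0.985 (0.901 to 1.08). The ratio of the anchored sum over that of the other class was 1.02 (0.910 to 1.13). As medians over measured members, those averaging at least 1 CPM, the log2 ratio was -0.03 for 25 anchored members and -0.03 for 4 without a segment, against 0.01 for all 12747 measured genes. The difference of the 2 medians, anchored minus no segment, was -0.0047. Median GC content was 47.7% in the anchored class and 51.0% in the other.

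Of the 36 matched members 31 were measured, and their median log2 ratio was -0.05, with 19 lower in the SRα siRNA library and 12 higher. Over all measured genes 48.6% were lower at any size and 51.4% higher. Scaled by library totals, 23 of the 31 members and 54.5% of all genes were lower. At least 1.5-fold higher was 1 member of 31, STX16, against a background of 6.55% of all measured genes. STX16, at 0.808 CPM in the control library and 3.38 in the other, passed the filter only through the library where it is high. Its place among the members past 1.5-fold and 2-fold therefore rests in part on the filter. At least 1.5-fold lower were 2 members, GOSR2 and SEC22A, against a background of 6.97%. Past 2-fold were STX16 and GOSR2, 2 of 31, against 4.72%. These shares of the members, 3.23% higher and 6.45% lower past 1.5-fold, are no larger than the background. With library totals the lower share was 12.9% of members, 4 of 31, against 8.07% of genes, and after thinning the deeper library it was 12.9% against 8.41%. Among the 21 members with a mean of at least 20 CPM, where counting error is smaller, 0 were 1.5-fold apart in either direction, against 0.735% of 6807 genes. The log2 ratios of the 21 ran from -0.32 in USE1 to 0.36 in GOSR1, with a standard deviation of 0.163 against 0.194 over all genes of that level. The 95% counting interval lay above a ratio of 1 for 1 measured member, GOSR1, and below it for SEC22A and SEC22C. The interval of SEC22C reached across 1 with DESeq2 size factors, which left 1 member below, and with library totals STX17 joined as the third. Over all measured genes 5.46% lay above and 3.39% below. With DESeq2 size factors 3.21% of them lay below, and with library totals 4.81%.

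**Figure D3:**
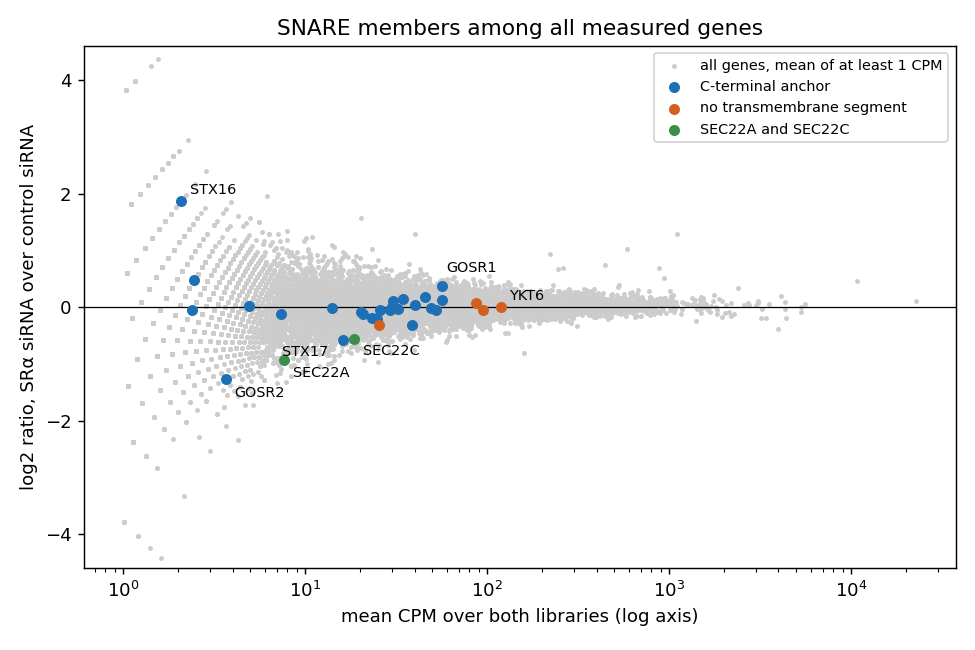
Log2 ratio of the SRα siRNA over the control library (vertical axis) against mean CPM (horizontal, logarithmic axis) for all 12747 measured genes in grey and the 31 measured SNARE members in colour. Members of at least 20 CPM stay between -0.32 and 0.36, and STX16 and GOSR2, far from 0, sit among genes of few reads.

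**Figure D4:**
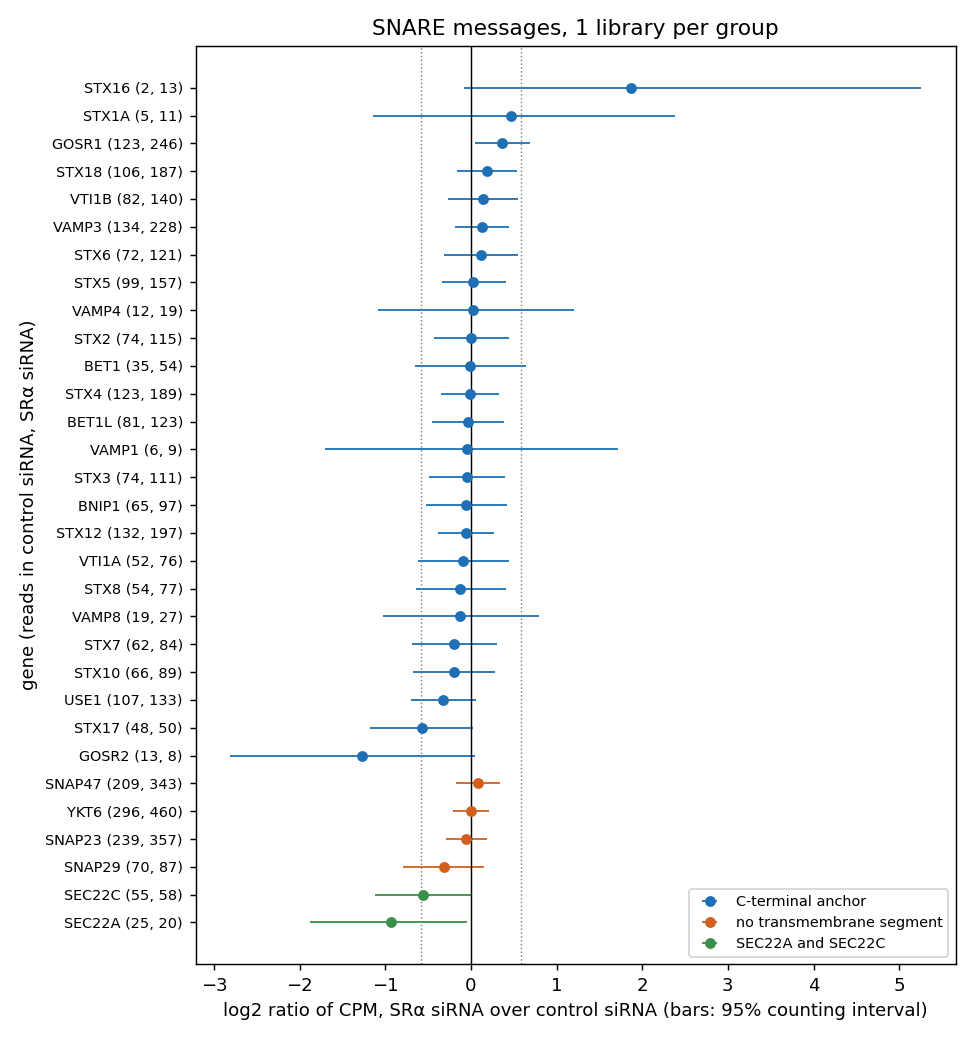
Log2 ratio of CPM of the SRα siRNA over the control library for each of the 31 measured members, with 95% counting intervals as bars, reads of both libraries beside each name, a solid line at 0 and dotted lines at 1.5-fold. In 28 of the 31 the bar reaches across 0, and the exceptions under TMM scaling are GOSR1 above and SEC22A and SEC22C below; the bar of SEC22C ends at 0 to 2 decimals.

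The Qa SNAREs, the syntaxins that organise a fusion complex on the target membrane, were level as a group. Their summed reads were 727 and 1117, a ratio of 0.989 (0.900 to 1.09), with 5 of 10 measured members lower and 5 higher. Over all measured genes 48.6% were lower. STX12, an endosomal syntaxin, had 132 reads in the control library and 197 in the SRα siRNA library, or 53.3 and 51.2 CPM (log2 ratio -0.06, 95% interval -0.38 to 0.27). STX4, which receives vesicles at the plasma membrane, had 123 and 189 reads, or 49.7 and 49.1 CPM (-0.02, -0.35 to 0.32). STX5 had 99 and 157 reads, or 40.0 and 40.8 CPM (0.03, -0.34 to 0.41). The ratios of these 3 syntaxins lay between 0.961 and 1.02.

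STX18, the Qa SNARE of the ER that receives vesicles returning from the Golgi, was the Qa member of at least 20 CPM with the highest ratio: 106 and 187 reads, 42.8 and 48.6 CPM, and a log2 ratio of 0.18 (-0.17 to 0.54). STX2 and STX3, both plasma membrane syntaxins, had 74 reads each in the control library and 115 and 111 in the SRα siRNA library. Their CPM were 29.9 in both libraries for STX2 and 29.9 and 28.8 for STX3. STX7, a late endosomal syntaxin, had 62 and 84 reads, or 25.04 and 21.8 CPM (-0.20, -0.69 to 0.30). All 4 intervals hold a ratio of 1.

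STX17 stood lowest of the Qa group, just short of 1.5-fold. It had 48 reads in the control library and 50 in the SRα siRNA library, or 19.4 and 13.0 CPM, a log2 ratio of -0.57 (-1.18 to 0.03). STX16 (ENSG00000124222.17), a Qa SNARE of transport from endosomes to the trans-Golgi network, had 2 and 13 reads, or 0.808 and 3.38 CPM, and a log2 ratio of 1.87 (-0.08 to 5.25). It passed the filter only through the SRα siRNA library. In GENCODE 29, 28.4% of the exonic bases of STX16 are shared with the read-through gene STX16-NPEPL1 on the same strand, which itself had 1 read in each library. Reads that match several genes were not assigned to any, so the level of STX16 is uncertain; the part of this overlap in its ratio was not tested. STX1A, the synaptic syntaxin, shares 17.9% of its exonic bases with BUD23 on the other strand, which had 794 and 1210 reads.

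The Qb SNAREs had 335 and 567 reads, a summed ratio of 1.09 (0.950 to 1.25), with 2 of 5 members higher and 3 lower, against 48.6% of all measured genes lower. GOSR1 (ENSG00000108587.10), the Golgi Qb SNARE also called GS28, stood highest: it had 123 reads in the control library and 246 in the SRα siRNA library, or 49.7 and 63.9 CPM. Its log2 ratio was 0.36 (0.05 to 0.69), a ratio of 1.29 (1.03 to 1.61), the highest among members of at least 20 CPM. VTI1B, which works with STX7 and STX8 in late endosomes, had 82 and 140 reads, or 33.1 and 36.4 CPM (0.14, -0.27 to 0.55). It shares 21.2% of its exonic bases with other genes, most with ARG2 on the other strand.

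BNIP1, the ER Qb SNARE and partner of STX18 and USE1, had 65 and 97 reads, or 26.2 and 25.2 CPM (-0.06, -0.53 to 0.42). VTI1A, of the trans-Golgi network, had 52 and 76 reads, or 21.0 and 19.8 CPM (-0.09, -0.62 to 0.45). GOSR2 (ENSG00000108433.11), the Qb SNARE of ER-to-Golgi transport also called membrin, stood lowest of all measured members, with 13 and 8 reads, 5.25 and 2.08 CPM, and a log2 ratio of -1.27 (-2.81 to 0.04). The Golgi partners of these complexes thus lay on both sides of 0, GOSR1 above and GOSR2 below, and GOSR2 rests on 21 reads in all. GENCODE 29 shares 5.12% of the exonic bases of GOSR2 with another gene on the same strand.

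The Qc SNAREs had 415 and 597 reads, a summed ratio of 0.926 (0.815 to 1.05). Lower were 5 of 6 members, against 48.6% of all measured genes, and every member's interval holds a ratio of 1. The lower members include BET1 and BET1L, at log2 ratios of only -0.01 and -0.03. USE1 had 107 reads in the control library and 133 in the SRα siRNA library, or 43.2 and 34.6 CPM, a log2 ratio of -0.32 (-0.70 to 0.06). It was the lowest of the members of at least 20 CPM, while its ER partners STX18 (0.18) and BNIP1 (-0.06) lay elsewhere. The intervals of the 3 ER partners overlap. STX10, of the trans-Golgi network, had 66 and 89 reads, or 26.7 and 23.1 CPM (-0.20, -0.68 to 0.28), and its close relative STX6 had 72 and 121 reads, or 29.1 and 31.4 CPM (0.11, -0.32 to 0.55).

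BET1L, the Golgi Qc SNARE that pairs with STX5 and GOSR1, had 81 and 123 reads, or 32.7 and 32.0 CPM (-0.03, -0.45 to 0.39). STX8, of late endosomes, had 54 and 77 reads, or 21.8 and 20.01 CPM (-0.12, -0.64 to 0.41). BET1, which works with GOSR2 on the way from the ER to the Golgi, had 35 and 54 reads, or 14.1 and 14.0 CPM. No difference was detectable for these 3 at this depth.

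Of the R SNAREs, which mostly sit on the vesicle, 5 of 8 matched genes were measured. YKT6 (ENSG00000106636.3) had 296 reads in the control library and 460 in the SRα siRNA library, or 119.5 CPM in both, a ratio of 1.0001 (0.862 to 1.16). It was the member with the most reads and the narrowest interval. VAMP3 had 134 and 228 reads, or 54.1 and 59.3 CPM (log2 ratio 0.13, -0.18 to 0.45). The 7 anchored R genes together had 174 and 284 reads, a ratio of 1.05 (0.867 to 1.28), of which VAMP3 made up most. VAMP8, an R SNARE of endosomes and autophagosomes, had 19 and 27 reads, and VAMP4, of the trans-Golgi network, 12 and 19, with log2 ratios of -0.13 and 0.03.

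VAMP7, the R SNARE of lysosomes, was listed at 0 reads in both libraries, and nothing can be said of its level. The files hold 47 genes under paired IDs, 1 with the prefix ENSG and 1 with ENSGR, VAMP7 among them, and every row of both kinds was at 0. Such pairs stand for regions with 2 identical copies, and only unique alignments were assigned to genes. VAMP5 had 1 read in each library, VAMP2 2 and 0, STX11 2 and 3, and SNAP25 1 and 0. These 4 and VAMP7 did not pass the filter. For VAMP2, 13.2% of exonic bases are shared with another gene on the same strand.

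The Qbc SNAREs lack a membrane segment, and their summed ratio was 0.976 (0.872 to 1.09) from 519 and 787 reads. SNAP23, the widely expressed counterpart of SNAP25 at the plasma membrane, had 239 reads in the control library and 357 in the SRα siRNA library, or 96.5 and 92.8 CPM (-0.06, -0.30 to 0.19). SNAP47 had 209 and 343 reads, or 84.4 and 89.1 CPM (0.08, -0.17 to 0.33). SNAP29, the Qbc partner of STX17 and VAMP8 in autophagosome fusion, had 70 and 87 reads, or 28.3 and 22.6 CPM, the lowest ratio of the class at -0.32 (-0.79 to 0.15). The 3 proteins of that complex thus had ratios of -0.57, -0.32 and -0.13, each with an interval that holds 0. SNAP47 shares 35.3% of its exonic bases with JMJD4 on the other strand, and SNAP23 27.4% with other genes, so their counts are uncertain where strand was not used.

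SEC22A and SEC22C, the relatives of SEC22B with more than 1 predicted membrane segment, both lay lower in the SRα siRNA library. SEC22A (ENSG00000121542.7) had 25 reads in the control library and 20 in the SRα siRNA library, or 10.1 and 5.20 CPM, a log2 ratio of -0.94 (-1.88 to -0.05). SEC22C (ENSG00000093183.9) had 55 and 58 reads, or 22.2 and 15.1 CPM, a log2 ratio of -0.55 with an interval whose upper end lies just below 0 (-1.12 to -0.00018). With DESeq2 size factors that interval ran from -1.11 to 0.0047, so whether it leaves out 0 rests on the scaling. Their summed reads, 80 and 78, gave a ratio of 0.627 (0.453 to 0.868). Set against the anchored members, the ratio of the 2 ratios was 0.628 (0.451 to 0.874). The pair was set apart by its segments with earlier results known, and its summed ratio was added after the single values were seen; the intervals take no account of that. SEC22A shares 10.4% of its exonic bases with PDIA5 on the same strand, which had 257 and 389 reads.

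Genes that act with the SNAREs were described from lists. The list of disassembly factors and Sec1/Munc18 proteins holds NSF and its adaptors, which take SNARE complexes apart, and proteins that clasp syntaxins. It also holds STXBP4, STXBP5 and STXBP6, which share the STXBP name but are not Sec1/Munc18 proteins. Of its 15 measured members 10 were higher, against 51.4% of all measured genes, and 0 were 1.5-fold apart, against 6.55% higher and 6.97% lower. The median log2 ratio was 0.12, and the ratio of summed reads 1.03 (0.971 to 1.10). STXBP2, the Munc18 protein of STX11 and STX3, had the lowest ratio at -0.33 (-0.795 to 0.13), and STXBP4 the highest at 0.31 (-0.18 to 0.81). VPS33B was at -0.28 and STXBP5, which binds syntaxins as tomosyn, at 0.26. Tethers, the complexes that hold a vesicle before fusion, had a median of 0.09 over 31 measured members, with 21 higher and 0 past 1.5-fold. The same all-gene shares, 51.4% higher and 6.55% and 6.97% past 1.5-fold, stand beside these counts. Summed over the tethers, 4453 and 7392 reads gave a ratio of 1.07 (1.03 to 1.11). The sum over all genes gives 1.026, but the TMM factors alone set that value, so it is no measured background. The median log2 ratio of all measured genes was 0.01. Single tethers ran from VPS18 (-0.28, -0.72 to 0.16) and VPS11 (-0.245), subunits of the HOPS and CORVET complexes, to VPS8 (0.44) and COG8 (0.55, -0.06 to 1.201).

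The factors that insert C-terminal anchors, the GET pathway and the ER membrane protein complex, had a median of -0.12, with 13 of 16 measured members lower and 0 past 1.5-fold. Of all measured genes 48.6% were lower, and 6.97% were lower past 1.5-fold. Their summed reads were 3706 and 5357, a ratio of 0.930 (0.892 to 0.970). The median log2 ratio of all measured genes was 0.01. GET3, the ATPase that carries tail anchors to the ER, had 69.9 and 56.7 CPM, a log2 ratio of -0.30 (-0.597 to -0.00595), and EMC6 had -0.33 (-1.13 to 0.47). UBL4A (0.03) and EMC2 (0.12) were the highest. Their clients among the SNAREs, the anchored members, had a summed ratio of 0.9999.

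Tail-anchored proteins other than SNAREs gave a median of 0.02 over 28 measured genes, with 16 higher, 12 lower and 0 past 1.5-fold, and a summed ratio of 1.01 (0.981 to 1.04). Of all measured genes 51.4% were higher. FIS1, a mitochondrial fission protein, had the highest ratio at 0.32 (0.03 to 0.62, or -0.0093 to 0.58 with library totals), followed by SYNJ2BP at 0.29, and the survival protein BCL2L1 the lowest at -0.375 (-1.05 to 0.30), next to BNIP3L at -0.19. Over all coding genes whose only predicted segment is C-terminal, 358 were measured with a median of -0.0087, against 0.03 for 7749 genes with no predicted segment. Both sets were drawn by hydropathy alone, and signal sequences were not looked for separately, so the first is not a list of tail-anchored proteins. The median of the 25 measured anchored SNAREs was -0.03.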

How the data were processed

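RNA-seq was analysed for 2 libraries, 1 per group. The authors deposited raw read counts by Ensembl gene ID. The submitters' processing notes name cutadapt, STAR 2.5.2b and the build hg19, and libraries came from a stranded TruSeq mRNA kit, per the labels' protocols. Counting program, strand setting and gene models: not given in the sources used here. The 5 summary lines of each file stayed out of library sizes; of unique alignments, 4.67% and 4.58% matched several genes and 7.23% and 7.49% no gene, and 79.6% and 76.5% of all entries were alignments that were not unique.

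Libraries were scaled by TMM (edgeR 4.0.16, R 4.3.3). Log2 ratios used a prior count of 0.5 scaled to depth, and intervals are exact (Clopper-Pearson) binomial intervals of the 2 counts, at 95%; ratios of summed reads used no prior, and ratios of 2 such ratios the exact conditional interval. Reads without molecular identifiers are not independent molecules. Measured means a mean of at least 1 CPM. Exonic length, GC, overlaps and coding sequences came from GENCODE 29 by gene ID, since no protein table was used here, and no coordinates are given because the builds differ. The interval was tested on simulated Poisson counts only, the kind of error it assumes. That test cannot speak to spread between libraries or to reads that are not independent. Members, lists and rules were chosen with earlier results of these data known. All members are accounted for, with full values for those of at least 20 CPM or at least 1.5-fold apart, and for each list of partners the 2 lowest and 2 highest genes above 5 CPM. Others named were chosen for their role or after their values were seen. Alternatives were other scalings (DESeq2 1.42.0 size factors, upper-quartile factors, library totals), other filters, a prior count of 2, thinning, and SEC22A and SEC22C counted as anchored. Python 3.11.15, scipy 1.17.1 and matplotlib 3.10.9 were used.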

Additional observations from a re-analysis of the deposited data

How the results depend on the processing

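No paired analysis was possible because each group has 1 library, and for the same reason no library could be left out. The ratio of each member stayed inside its own 95% counting interval in all 212 alternative values. This was largely fixed in advance, because the filters leave a ratio as it is and the scalings shift ratios by at most 0.04. Only the prior count of 2 and thinning could move single members further. Of members at least 1.5-fold apart, 0 changed sign. Members near 0 did: 4 with library totals (STX5 from 0.03 to -0.0070, with STX2, VAMP4 and YKT6), 2 with upper-quartile factors (STX2 and YKT6) and 5 after thinning (STX3 from -0.05 to 0.18, STX4 from -0.02 to 0.13, VAMP1 from -0.05 to 0.24, with STX12 and YKT6). The median of the anchored class ranged from -0.07 to 0.04, that of the class without a segment from -0.06 to -0.02, and the difference between them from -0.02 to 0.07, so its sign is not fixed. The summed log2 ratio of the anchored class ranged from -0.04 to 0.03, and that of SEC22A and SEC22C, alternatives added after seeing the data, from -0.76 to -0.67. Counts past 1.5-fold moved because they rest on members of few reads or near the limit. Members at least 1.5-fold higher numbered 0 with a mean of at least 5 CPM, against 2.48% of all genes. After thinning the deeper library they numbered 2 (6.45% against 7.15%). Without members of under 30 reads, a limit added after seeing the data, they numbered 0. Under that limit no share over all genes was counted, in either direction. Members at least 1.5-fold lower numbered 4 with library totals (12.9%, against 8.07% of all genes), 4 after thinning (12.9% against 8.41%), 4 with no filter (11.4% against 14.0%), 1 with at least 5 CPM (3.85% against 2.55%) and 1 without members of under 30 reads; with library totals STX17 (-0.61) and SEC22C (-0.59) joined. Members with an interval below a ratio of 1 numbered 1 of 31 with DESeq2 size factors, against 3.21% of all genes, a count added after seeing the data. Over all genes, 3594 were higher and 2590 lower with no filter, and 251 and 258 with at least 5 CPM. No scaling moved the median of all genes by more than 0.04 (log2). With a median mean level of 25.7 CPM among measured members, single members carried wide intervals, such as that of STX2 (-0.43 to 0.44); more reads gave narrower ones, as for YKT6 (-0.21 to 0.22).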
